A study of Mus musculus with 20 samples.

Results

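The cytosolic ribosomal protein genes were followed in spleen RNA sequencing libraries from mice that were bred on a gluten-free diet and from control mice. A gene was a member when its biotype was protein coding and its symbol was Rpsa, began with Rpl or Rps and a number, or was Rplp0, Rplp1 or Rplp2; the Rps6k kinases were left out. The rule gave 94 of the 54532 genes in the table: 52 named for the large subunit, 33 named for the small subunit, 8 names with "-ps" that carry the protein-coding biotype, and Rps19bp1. Rps19bp1 encodes a protein that binds RPS19 and is not itself a ribosomal protein. Fau and Rack1, which encode ribosomal proteins under other names, fall outside the rule and are given with the neighbouring genes of the pathway. RNA of whole spleens was compared between 9 gluten-free and 11 control libraries of mice aged 4 weeks. The gluten-free libraries comprised 4 with a plain number as ID and 5 with an S before the number, and the control libraries comprised 8 with plain IDs and 3 with S IDs. The labels do not say what the S means, which strain or sex the mice were, what the control diet contained, or whether each ID is 1 mouse, so p-values measure the spread between these libraries.

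Ribosomal proteins and ribosomal RNA are built into the small and large ribosomal subunits, which translate all cytosolic mRNA. The mRNAs of these proteins typically begin with a run of pyrimidines at the 5′ end (the terminal oligopyrimidine tract), through which mTORC1 and LARP1 control their translation. In the spleen of young mice, developing red cells are a large population that makes protein at a high rate. In humans, mutations in several of these genes cause Diamond-Blackfan anaemia, a failure of red cell formation.

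Total counts per library were 16134584 to 22501138 in the gluten-free plain-ID, 13626021 to 19719591 in the control plain-ID, 18008255 to 24268237 in the gluten-free S-ID and 15235671 to 17824287 in the control S-ID libraries. Of the 94 members, 89 passed the filter on low counts, and Rpl10l, Rpl13a-ps1, Rpl36-ps4 and Rpl9-ps1 had no count in any library. The remaining untested member was Rpl39l. Calls were made with edgeR's quasi-likelihood test at 0.05 after Benjamini-Hochberg adjustment over the 18362 genes tested. Levels of 1 gene across libraries are given as CPM (counts set to a common library size) scaled by TMM, a method that sets library sizes so that most genes do not shift. Pancreatic acinar markers summed to 10539 CPM in gluten-free S1 and 921 CPM in control 5, against 6.19 to 14.2 CPM in the other libraries. Only control 5 of these is in the plain-ID comparison, and leaving it out changed the plain-ID count given below to 54 members. Without gluten-free S1 no member was called in the S-ID comparison.

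Levels per length, as TPM (counts scaled by gene length and to a fixed total per library) averaged over the 20 libraries, differed widely between members. Rplp1, an acidic protein of the ribosomal stalk that recruits elongation factors, was highest at 7468 ± 1342 TPM (SD, n = 20). Rps3a1 followed at 3745 ± 343 TPM, Rpl41 at 3372 ± 315 TPM, Rps15 at 3007 ± 434 TPM and Rps29 at 2785 ± 969 TPM. Neighbours among these 4 differed by less than the sum of their SDs, while Rplp1 stood above Rps3a1 by more. The median member stood at 679.7 TPM, and 27 members were above 1000 TPM.

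A group of 22 members lay under 100 TPM. It held genes of restricted expression, such as Rpl3l, the muscle paralogue of Rpl3, at 0.96 ± 0.64 TPM, and Rpl39l, a paralogue of Rpl39 known from testis, at 0.60 ± 0.41 TPM. It also held genes for standard ribosomal proteins, as counted under their own gene entries. Rpl29 was at 3.13 ± 1.48 TPM, Rpl21 at 4.26 ± 0.94 TPM, Rpl24 at 4.45 ± 1.35 TPM, Rps10 at 8.73 ± 2.49 TPM and Rpl34 at 11.7 ± 2.41 TPM. Rps18 was at 31.0 ± 9.82 TPM, Rpl35a at 41.5 ± 14.4 TPM and Rpl13a at 57.7 ± 5.27 TPM.

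**Figure D1:**
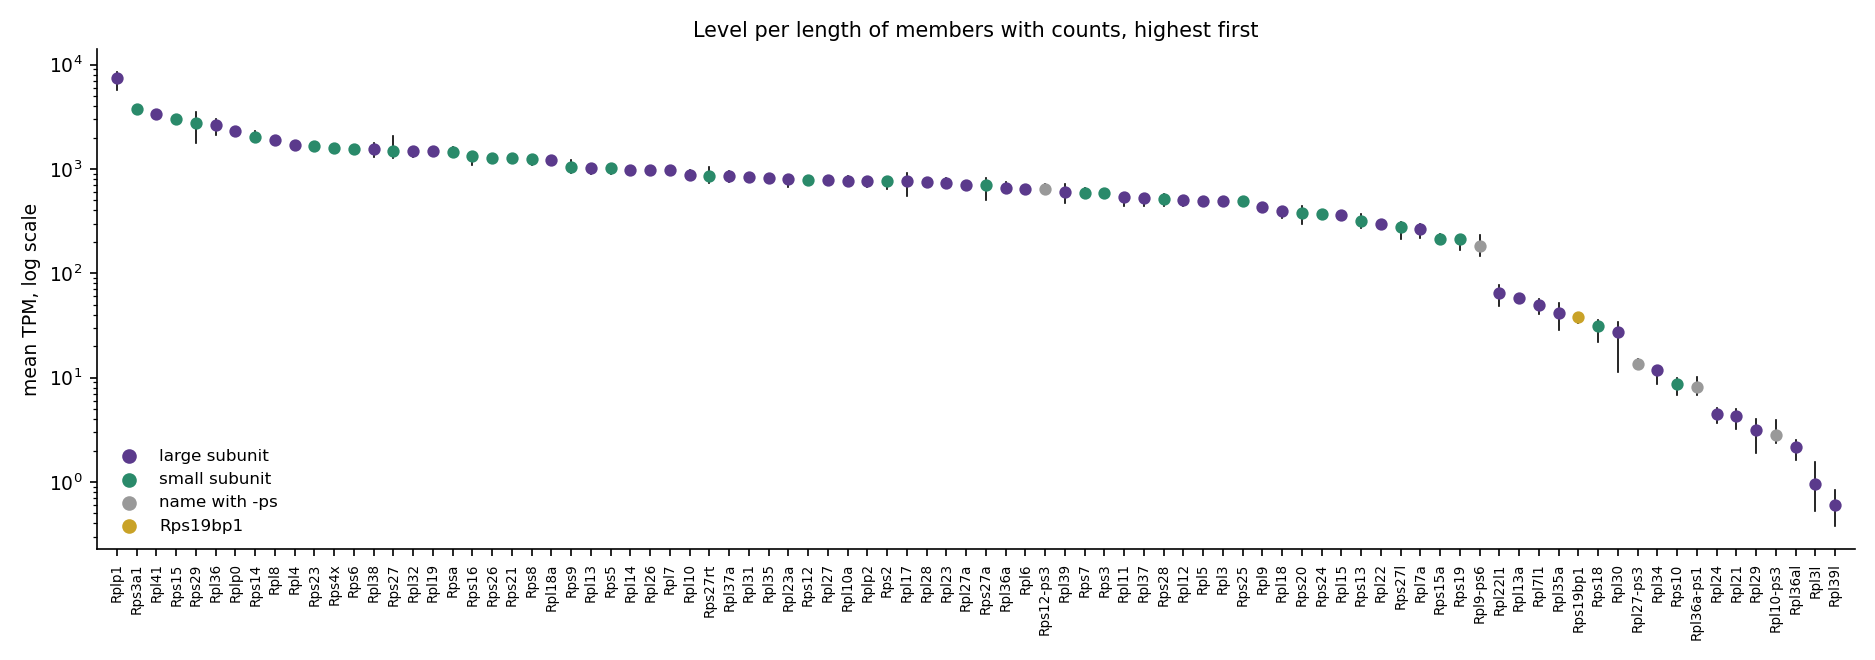
Mean TPM of members with counts over the 20 libraries, on a log scale, ordered from highest to lowest and coloured by subunit; vertical lines span the 4 group means. Levels fall gently across most members and then drop below 100 TPM for 18 of those shown, among them the standard genes Rpl29, Rpl21, Rpl24, Rps10 and Rpl34.

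Many members share long stretches of sequence with other genes, and how the authors' counting treated reads that match several places is not given in the sources used here. The levels above therefore describe the deposited counts. In GENCODE M21 (GRCm38), 21 of 92 members had over 50% of their 100-base windows in the transcripts of another gene as well, and 26 had under 10%. The median member shared 23.0% of its windows. The shared part was 80.1% for Rpl24 and 47.3% for Rps18, and 5.79% for Rpl34. Pseudogenes that carry a member's name held more counts than the member itself for some low genes. Over the 20 libraries, 2 named pseudogenes of Rpl34 held 244698 counts against 5454 in Rpl34, 4 of Rps10 held 73767 against 3537 and 15 of Rpl21 held 33194 against 2546. For Rpl29 the named pseudogenes held 49 counts against 608. Genes of other names that share windows with Rpl29, such as Gm6344 with 223, are not in the 49. The low levels of Rpl34, Rps10 and Rpl21 are therefore levels of these entries, not of all reads of that name. Over all these members, Spearman's rho between mean TPM and the shared part was 0.17, as a description over genes that are not independent.

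The Rps27 genes are shown because their results differ below and because 2 of the 3 cannot be told apart by their coding sequence. Outside it they differ: 40.1% of the 100-base windows of Rps27 and 89.5% of those of Rps27rt were shared with another gene. The first 90 bases of their coding sequences are printed in lower case, with capitals where a base differs from Rps27. Rps27 lies at chr3:90212522-90213651 (GRCm38, minus strand), its intronless copy Rps27rt at chr9:114982366-114982739 (minus strand) and the paralogue Rps27l at chr9:66946086-66949516 (plus strand).
Rps27: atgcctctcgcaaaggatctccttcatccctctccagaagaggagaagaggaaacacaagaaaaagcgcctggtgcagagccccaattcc
Rps27rt: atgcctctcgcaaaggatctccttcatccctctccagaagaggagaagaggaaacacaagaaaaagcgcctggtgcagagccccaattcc
Rps27l: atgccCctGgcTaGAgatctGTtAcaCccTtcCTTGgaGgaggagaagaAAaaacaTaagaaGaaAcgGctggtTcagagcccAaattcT
Rps27rt matched Rps27 at each of the 255 coding bases, so reads inside the coding sequence cannot be assigned to either. Rps27l differed at 61 of 255 bases (76.1% identity) and shared none of its 100-base windows with another gene.

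In the plain-ID libraries most ribosomal protein genes were lower in gluten-free spleens when libraries were scaled by TMM, and this direction rested on the scaling. Under TMM, 58 of 89 tested members fell and none rose, against 22.1% of all tested genes lower and 17.5% higher. The median log2 fold change of the members was -0.31, against 0.03 over all tested genes, and 87 of the 89 estimates were below 0. The changes were small: 6 called members fell by 1.5-fold or more. Without gluten-free 7 the count was 38. CPM ranges of the diets did not overlap in 38 members, against 21% of all tested genes. When libraries were scaled by their total counts instead, 7 members fell and 1 rose, against 11.1% of all genes lower and 35.5% higher, and the median was -0.03, while the median of all genes moved up by 0.27, to 0.31. Relative to the median of all genes, members stood 0.35 lower under TMM, 0.34 lower with library totals and 0.34 lower when libraries were scaled to the members' own sum. A change of scaling shifts all genes by nearly the same amount, so the likeness of these values is built in and adds no support.

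The summed counts show the same dependence. The members took 5.86%, 6.02%, 6.03% and 6.29% of all gene counts in the 4 gluten-free plain-ID libraries, against a lowest of 5.84%, a median of 6.25% and a highest of 6.48% in the 8 control plain-ID libraries. These ranges overlapped. As a share of the TMM-scaled library they took 5.14 ± 0.21% in gluten-free libraries and 6.45 ± 0.60% in control libraries (SD, n = 4 and 8), and here the gluten-free maximum of 5.40% lay below the control minimum of 5.52%. The TMM factors were 1.15 to 1.23 in the gluten-free libraries and 0.90 to 1.11 in the control libraries. The counts of large-subunit genes per count of small-subunit genes, a ratio that no scaling touches, were 1.16 ± 0.02 in gluten-free and 1.21 ± 0.04 in control libraries, with overlapping ranges of 1.13 to 1.18 and 1.13 to 1.25. The overlap came from control 5 alone, and the other 7 controls had 1.20 to 1.25. Control 5 had high acinar markers. Gluten-free S1, with the highest acinar sum, had a ratio of 1.19, against 1.18 to 1.24 over its group. Control S6, without high acinar markers, had 1.14. The part of acinar tissue in this ratio was not tested.

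**Figure D2:**
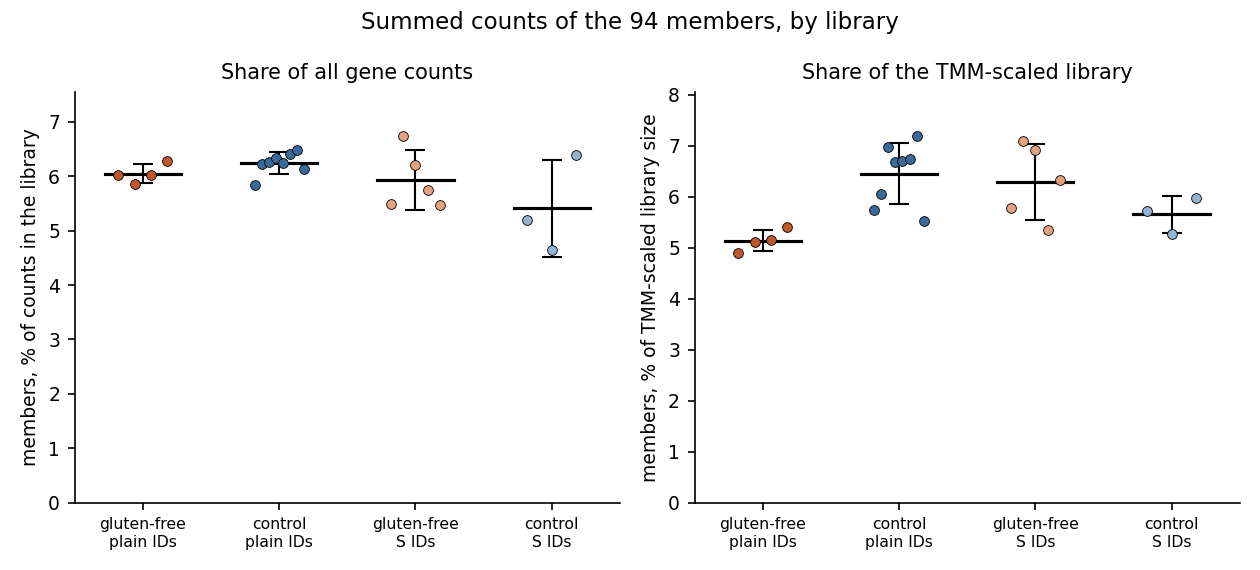
Summed counts of the 94 members in each library, as a percentage of all gene counts (left) and of the TMM-scaled library size (right); points are libraries, bars are the mean ± SD of each group. The plain-ID diets overlap on the left and separate on the right, with 5.14% in gluten-free and 6.45% in control libraries.

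Markers of other cells moved with the diet in the same libraries. All 20 erythroid markers tested were lower in gluten-free plain-ID spleens (median log2 fold change -1.35), with sums of 59332 to 106389.5 CPM in gluten-free and 88756 to 196211 CPM in control libraries. Fewer cells of a type and less RNA per cell cannot be told apart in bulk tissue. The globin share of all counts had medians of 9.52% in gluten-free and 15.1% in control libraries. All 15 cell cycle genes were lower as well (median -1.16), while all 11 T cell, all 10 neutrophil and all 7 tested megakaryocyte markers were higher. Of 10 B cell markers 1 was higher, and none of 6 red pulp macrophage markers was called. With library totals 18 of the 20 erythroid markers and all 15 cell cycle genes were still lower. Under that scaling 9 of the 10 B cell markers were higher (median 0.70), beside 35.5% of all tested genes higher. All T cell, neutrophil and tested megakaryocyte markers stayed higher, and no red pulp macrophage marker was called. With the erythroid mean as a covariate, 2 members were called (Rpl7a and Rps18, both lower), against 2.11% of all genes lower and 2.46% higher, and the median of the members was 0.02. Since the erythroid markers themselves differed between the diets, this fit cannot separate the covariate from the diet. The part of these cells in the members' difference was not tested.

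Genes of both subunits were called: 35 of 50 large-subunit genes and 22 of 33 small-subunit genes fell under TMM, with medians of -0.33 and -0.30. Over all tested genes 22.1% were lower under TMM, and with library totals 7 members of the whole family fell. None of the 5 tested "-ps" names was called. Rps19bp1 fell by 0.46 (SE 0.12, adjusted p = 0.00565).

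A set of 5 members fell under each of the 3 scalings (TMM, library totals and the members' own sum), so that they also fell relative to the rest of the family. These were Rps27l, Rps2, Rpl7a, Rpl41 and Rpl21. Against the members' sum these 5 were the called members that were lower and 3 were higher, Rps27 and Rps14 among them, beside 9.42% of all genes lower and 37.7% higher. Both counts are smaller shares of the 89 tested members than those over all genes. The set was singled out after its values were seen.

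Rps27l, a paralogue of Rps27 that p53 is known to induce, had 62.8, 65.8, 75.2 and 77.5 CPM in the gluten-free plain-ID libraries, against a lowest of 89.3, a median of 125 and a highest of 151 CPM in the control plain-ID libraries. Every gluten-free library lay below every control library. The log2 fold change was -0.83 (SE 0.13, adjusted p = 9.65e-05), and it was -0.50 when libraries were scaled to the members' sum.

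Rps2, which encodes a small-subunit protein near the mRNA entry channel, had 455.7, 460.2, 463.1 and 506.4 CPM in gluten-free libraries, against a lowest of 615, a median of 833 and a highest of 966 CPM in controls. The ranges did not overlap, and the log2 fold change was -0.75 (SE 0.12, adjusted p = 0.000163) under TMM and -0.42 against the members' sum. Rps2 shared 43.8% of its windows with other genes.

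Rpl7a, a large-subunit protein whose gene hosts small nucleolar RNAs in its introns, had 141, 150.5, 159 and 172 CPM in gluten-free libraries, against 190.1, 266 and 299 CPM as the lowest, median and highest control values. It fell by 0.74 (SE 0.12, adjusted p = 0.000151) under TMM and by 0.41 against the members' sum, without overlap of the ranges. Its windows were 73.5% shared.

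Rpl41, which encodes a very short large-subunit peptide, had 1285, 1472, 1517 and 1555 CPM in gluten-free libraries, against 1572, 2324 and 2677 CPM as the lowest, median and highest control values. The log2 fold change was -0.60 (SE 0.14, adjusted p = 0.00253). Rpl21 fell by 0.79 (SE 0.16, adjusted p = 0.000877), from few reads: it had 4.29, 4.42, 4.72 and 7.01 CPM in gluten-free libraries and 7.69 to 10.6 CPM in controls. Neither gene's diet ranges overlapped.

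Rps27 went the other way. It had 732, 885, 907 and 920.4 CPM in the gluten-free libraries, against a lowest of 687, a median of 753 and a highest of 933 CPM in controls. The ranges overlapped, and the log2 fold change of 0.16 (SE 0.10, adjusted p = 0.222) was not called under TMM. It was called at 0.43 with library totals (adjusted p = 0.0015) and at 0.48 against the members' sum (adjusted p = 0.001). Rps27rt, whose reads cannot be separated from those of Rps27 in the coding sequence, had 125 ± 30.3 CPM in gluten-free and 150.3 ± 86.5 CPM in control libraries. The sum of Rps27 and Rps27rt was 986 ± 61.9 CPM in gluten-free and 922 ± 107 CPM in control libraries, with overlapping ranges.

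The count of Rps27l per 100 counts of Rps27 does not depend on the scaling of libraries. It was 7.43 to 8.57 in the 4 gluten-free plain-ID libraries, against 12.7 to 21.6 in the 8 control plain-ID libraries, 14.8 to 37.8 in the 5 gluten-free S-ID libraries and 13.0 to 22.9 in the 3 control S-ID libraries. The gluten-free plain-ID libraries thus lay below every other library. This ratio was chosen after its values were seen and has no test here.

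**Figure D3:**
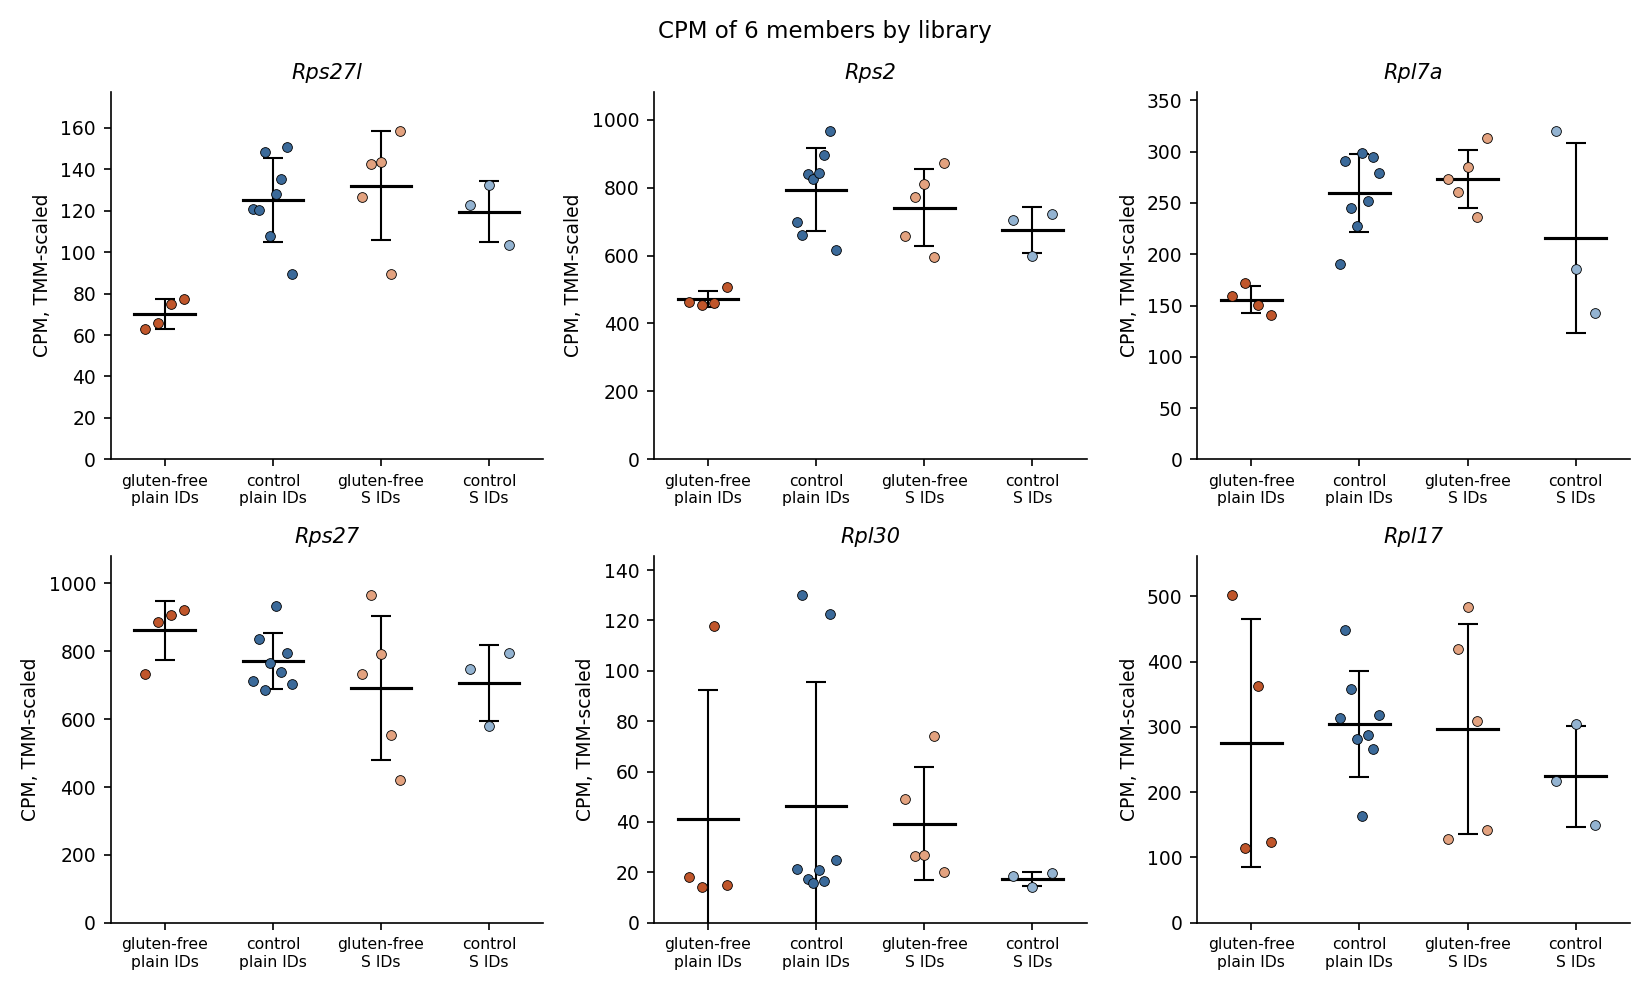
CPM of Rps27l, Rps2, Rpl7a, Rps27, Rpl30 and Rpl17 in each library, scaled by TMM; points are libraries, bars are the mean ± SD of each group. Rps27l, Rps2 and Rpl7a are lower in all 4 gluten-free plain-ID libraries than in any control plain-ID library, Rps27 is not, and Rpl30 and Rpl17 vary several-fold within groups.

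The ribosomal stalk genes fell in part. Rplp0, the base of the stalk, had 1407, 1431, 1463 and 1475 CPM in gluten-free libraries and 1656 to 2312 CPM in controls, with no overlap (log2 fold change -0.49, SE 0.10, adjusted p = 0.00147). It was also called with library totals, at -0.20 (adjusted p = 0.0245), but not against the members' sum, at -0.16 (adjusted p = 0.0654). Rplp1 fell by 0.49 (SE 0.14, adjusted p = 0.00859), and Rplp2 had -0.41 (SE 0.17, adjusted p = 0.0715).

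Rpl5 and Rpl11, which together with 5S ribosomal RNA bind the p53 regulator MDM2 when ribosome assembly stalls, fell by less than the median of the family. Rpl5 had 785, 792, 833 and 841 CPM in gluten-free libraries and 885 to 979.9 CPM in controls, and fell by 0.21 (SE 0.08, adjusted p = 0.0446). With library totals the estimate for Rpl5 was 0.07, and the call was lost in 11 of 12 fits that left out 1 library (all but that without control 8). Rpl11 fell by 0.29 (SE 0.10, adjusted p = 0.036) with overlapping ranges of 602 to 728 CPM in gluten-free and 677 to 958 CPM in control libraries, and its call was lost without gluten-free 7, 8 or 9 or control 3, 6 or 7.

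Of 10 members whose human counterparts are mutated in Diamond-Blackfan anaemia, 8 fell under TMM and none rose. Over the whole family 58 of 89 fell, and 22.1% of all tested genes were lower. The median of the 10 was -0.31, the same as over all members. Rps19, the gene most often mutated in that disorder, had 439 ± 17.7 CPM in gluten-free and 554 ± 55.1 CPM in control libraries (log2 fold change -0.34, SE 0.09, adjusted p = 0.00863). Rps26 fell by 0.42 (SE 0.11, adjusted p = 0.00572) and Rps10 by 0.43 (SE 0.16, adjusted p = 0.0378). Rps7 and Rps24, at -0.19 each, were not called. The Rps10 call was lost without gluten-free 7, 9 or 10 or control 1, 2, 4, 5 or 6. None of these genes was called with library totals.

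Rpl35a, also in that group, had 50.01, 59.3, 63.7 and 67.5 CPM in gluten-free libraries, against a lowest of 54.8, a median of 86.1 and a highest of 151 CPM in controls. The controls spread nearly 3-fold, and the ranges overlapped. The log2 fold change was -0.67 (SE 0.21, adjusted p = 0.0209), and the call was lost without gluten-free 7 or without gluten-free 9 (highest adjusted p 0.0682).

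Of 7 tested paralogues of standard ribosomal protein genes, 1 (Rps27l) fell, beside 22.1% of all tested genes lower; Rps4l, a pseudogene in the file, is among the 7. Rpl22, a large-subunit protein needed for T cell development, fell by 0.31 (SE 0.09, adjusted p = 0.0102), while its paralogue Rpl22l1, which Rpl22 is known to repress, had -0.22 (SE 0.09, adjusted p = 0.0659). The count of Rpl22l1 per 100 counts of Rpl22 was 17.9 ± 1.13 in gluten-free and 16.8 ± 1.56 in control libraries, with overlapping ranges. Rpl3l had the highest estimate of all members, 0.35 (SE 0.40, adjusted p = 0.505), at about 1 CPM.

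Among other members of known standing, Rpsa, which is also a laminin receptor, fell by 0.36 (SE 0.11, adjusted p = 0.017). Rps6, the substrate of S6 kinase, had 982 ± 11.9 CPM in gluten-free and 1204 ± 123 CPM in control libraries and fell by 0.29 (SE 0.10, adjusted p = 0.0245). Rps3, a small-subunit protein that also acts in DNA repair, fell by 0.29 (SE 0.09, adjusted p = 0.018). Rpl38, known for its part in translating Hox mRNAs in mouse embryos, had -0.24 (SE 0.11, adjusted p = 0.0939) and was not called. Rpl10, which joins the large subunit late in its assembly, had -0.18 (SE 0.09, adjusted p = 0.108). The calls of Rpsa (without gluten-free 8), Rps3 (without gluten-free 8 or 9) and Rps6 (without any 1 of the 4 gluten-free libraries) were lost when a library was left out, and none of the 3 was called with library totals.

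**Figure D4:**
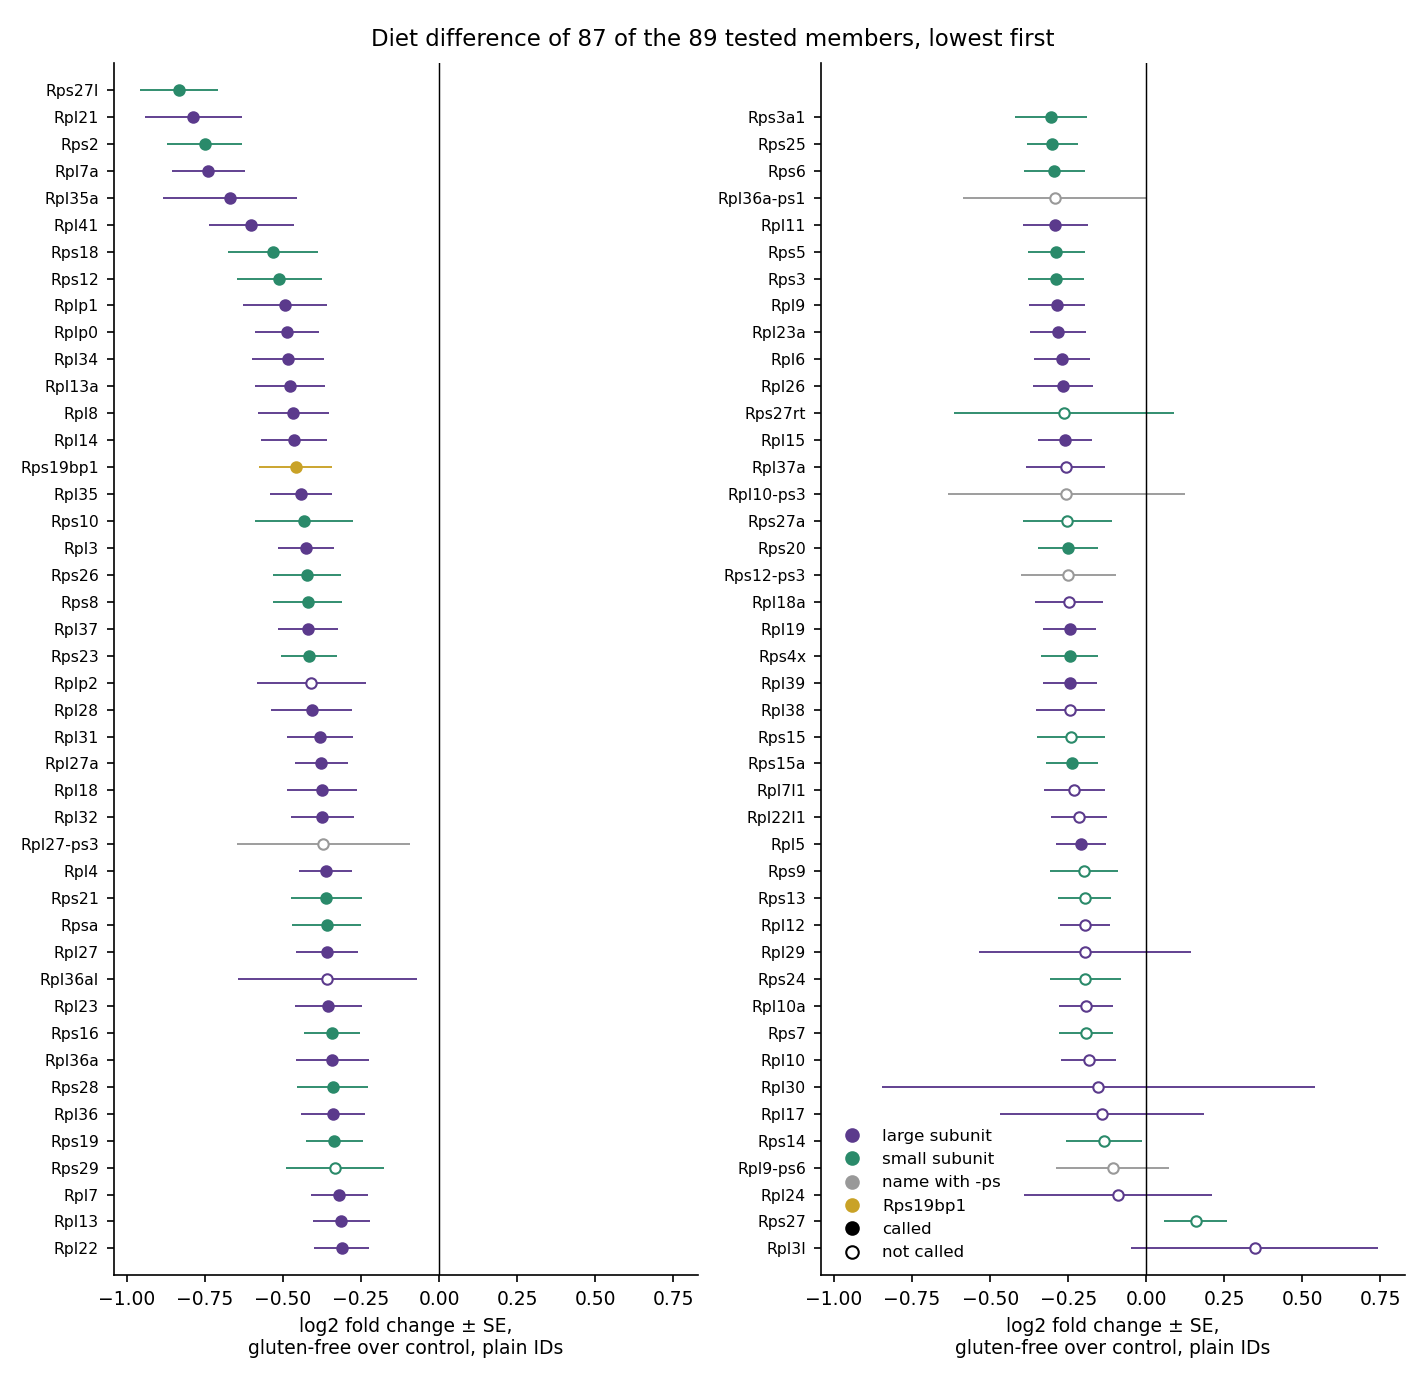
Log2 fold change ± SE of 87 of the 89 tested members in the plain-ID libraries under TMM, gluten-free over control, lowest first, coloured by subunit; filled points were called. All but Rps27 and Rpl3l lie below 0 under this scaling, while with library totals the median is -0.03; Rps27l, Rpl21, Rps2, Rpl7a, Rpl35a and Rpl41 are lowest.

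The start of the mRNA was read for the members in RefSeq (GRCm38.p6) to show the pyrimidine tract. A run of at least 8 C or T letters that reached within 5 bases of the annotated start was searched on the sense strand. It was found in 21 of 66 matched members (31.8%) and in 1955 of 20387 other genes (9.59%). Runs of A or G, which are the same letters on the opposite strand, were found in 3.03% of members and 10.4% of other genes. Windows of 30 bases, 15 before and 15 from the start on, are printed for 7 members, 6 of them described above and Rpl14, with the run in capitals. The first 4 hold a run and the last 3 do not; in Rps27l the run lies wholly before the annotated start, and in the other 3 it crosses it.
Rps27l: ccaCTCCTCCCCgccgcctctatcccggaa
Rpl7a: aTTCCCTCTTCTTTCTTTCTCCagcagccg
Rpl14: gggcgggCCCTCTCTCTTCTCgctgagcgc
Rps27: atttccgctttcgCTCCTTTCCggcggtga
Rps2: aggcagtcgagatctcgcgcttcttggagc
Rpl41: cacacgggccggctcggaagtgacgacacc
Rplp0: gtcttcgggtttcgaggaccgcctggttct
Rps27l, Rpl7a and Rpl14 (-0.47, adjusted p = 0.00242) fell under TMM and Rps27 did not, and all 4 hold a run in this window; Rps2, Rpl41 and Rplp0 fell without one in this window. Members with the run had a median log2 fold change of -0.38 (n = 21) and those without one -0.31 (n = 43). Annotated starts can lie away from the true start, and a window without a run says only that these letters are not there. The RefSeq start lay 1947 bases from the start of the counted gene in Rps2 and 137 bases in Rpl41, against 0 to 73 bases in the other printed members. The windows lie at chr9:66946071-66946100 (Rps27l, plus strand), chr2:26910792-26910821 (Rpl7a, plus), chr9:120571502-120571531 (Rpl14, plus), chr3:90213634-90213663 (Rps27, minus), chr17:24720048-24720077 (Rps2, plus), chr10:128549154-128549183 (Rpl41, minus) and chr5:115559452-115559481 (Rplp0, plus).

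In the S-ID libraries no member was called, and none of the 18362 tested genes was either (0% called). At an unadjusted p under 0.05, 5 members and 986 genes were past the threshold, and DESeq2 called 0 members. The estimates were on the other side of 0 from those of the plain IDs: 86 of 89 were positive, with a median log2 fold change of 0.16 against 0.02 over all genes. The smallest p-values were those of Rpl30, Rpl34 and Rps18. Rpl34 had 12.9 to 17.4 CPM in the 5 gluten-free libraries and 10.5, 12.1 and 12.4 CPM in the 3 controls (log2 fold change 0.44, SE 0.15, adjusted p = 0.89). CPM ranges did not overlap in 5 members (Rpl15, Rpl30, Rpl34, Rpl7l1 and Rps18), against 3.7% of all tested genes. The members took 5.93 ± 0.54% of all counts in gluten-free and 5.41 ± 0.90% in control S-ID libraries (SD, n = 5 and 3), with overlapping ranges.

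With all 20 libraries and a term for the ID form, no member and no other gene was called for diet (0% called). At an unadjusted p under 0.05 there were 5 members and 4559 genes, and DESeq2 called 0 members. The median of the members was -0.12. Rps27l, at -0.43 (SE 0.16, adjusted p = 0.111), and Rps2, at -0.39 (SE 0.14, adjusted p = 0.113), had the smallest p-values. The count was 2 without gluten-free S8 and 3 without control S6. The share of all genes called in those 2 fits is not given here, so these counts were not set against it.

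The diet difference itself differed between the ID forms under TMM. The S-ID difference minus the plain-ID difference was positive and called in 46 of 89 members and negative and called in none, against 15.4% of all genes higher and 9.37% lower. The median was 0.50 over the members and -0.02 over all genes. Rpl34 had the smallest p (0.93, SE 0.18, adjusted p = 0.00232), then Rpl21 (1.17, SE 0.25, adjusted p = 0.00382) and Rps2 (0.89, SE 0.19, adjusted p = 0.00425). Rps27l had 0.98 (SE 0.22, adjusted p = 0.00469). With library totals 8 members were called, all positive, against 7.05% of all genes higher and 14.4% lower, and the median of all genes moved down by 0.28; against the members' own sum 2 were called, Rps2 higher and Rps27 lower, beside 2.4% of all genes higher and 22.8% lower. With the erythroid mean as a covariate 2 were called, both higher, beside 5.02% of all genes higher and 4.66% lower, and without control S2 the TMM count was 29.

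**Figure D5:**
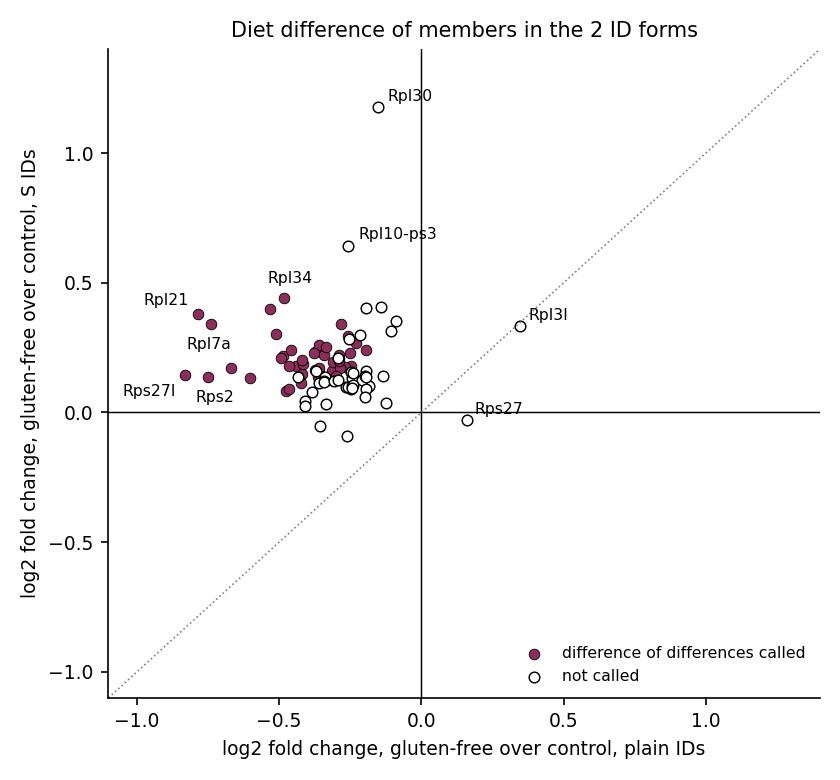
Log2 fold change of the 89 tested members, gluten-free over control, in the plain-ID libraries (x axis) and in the S-ID libraries (y axis), under TMM; filled points were called for the difference between the 2 forms, and the dotted line marks equal values. Most members lie at upper left, below 0 in plain IDs and above 0 in S IDs, with medians of -0.31 and 0.16; with library totals the plain-ID median is -0.03.

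The ID forms were also compared with each other within each diet. Among gluten-free libraries, 36 members were higher and 1 lower in S IDs than in plain IDs, against 19.4% of all genes higher and 12.1% lower. Rps27l (0.91, SE 0.15, adjusted p = 0.00225) and Rpl7a (0.81, SE 0.11, adjusted p = 0.00172) led. Rps2 had 741 ± 113 CPM in S IDs and 471 ± 23.6 CPM in plain IDs (SD, n = 5 and 4). With library totals 8 were higher and 7 lower, against 8.87% of all genes higher and 31.5% lower. The TMM count of 37 was 22 without gluten-free 8, 24 without gluten-free 9 and 56 without gluten-free S6. With the erythroid mean as a covariate none was called. In the same comparison 19 of 20 erythroid markers (median 1.25) and all 15 cell cycle genes (median 1.17) were higher in S IDs. Of 10 neutrophil markers, 7 were lower. Since the erythroid markers differed between the ID forms, the fit cannot separate the covariate from the ID form. The part of these cells in the members' difference was not tested. These values rest on the same gluten-free plain-ID libraries as the diet comparison.

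The called member that was lower was Rps29, a small zinc-binding protein of the small subunit, with 644 ± 213 CPM in S IDs and 984 ± 98.1 CPM in plain IDs (log2 fold change -0.61, SE 0.21, adjusted p = 0.047). Rps29 was lower in the S IDs of control mice too, with 629 ± 153 CPM against 1240.3 ± 282 CPM (-0.98, SE 0.21, adjusted p = 0.0284). In the control libraries 5 members were lower in S IDs and none higher, against 0.49% of all genes lower and 1.45% higher. The other four were Rpl39 (-0.54, SE 0.12, adjusted p = 0.0274), Rpl21 (-0.65, SE 0.15, adjusted p = 0.0418), Rpl34 (-0.59, SE 0.14, adjusted p = 0.0437) and Rpl22l1 (-0.54, SE 0.13, adjusted p = 0.0466). This count ran from 0 to 11 when single libraries were left out and moved by over 1.5 times without any 1 of the 11 controls. With the erythroid mean as a covariate it was 14. The shares of all genes called in these alternative fits are not given here. Of 7 megakaryocyte markers, 6 were higher in S IDs of controls (median 1.47), and their part in the members' difference was not tested.

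A few members varied widely between libraries of 1 group. The median within-group SD was 0.17 on the log2 CPM scale, and 6 members exceeded 0.5: Rpl30, Rpl3l, Rpl17, Rpl10-ps3, Rpl29 and Rps27rt. Rpl3l, Rpl10-ps3 and Rpl29 had few counts, while the other 3 did not. None of the 6 was called for diet.

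Rpl30, a large-subunit protein, fell into separate levels. It had 118 CPM in gluten-free 9 and 14.3 to 18.3 CPM in the other gluten-free plain-ID libraries, and 130.2 and 122 CPM in control 2 and control 7 against 15.8 to 24.9 CPM in the other plain-ID controls. In gluten-free S-ID libraries it had 49.0 CPM in S1 and 74.2 CPM in S6 against 20.1 to 26.8 CPM in the others, and in the control S-ID libraries 14.1 to 19.6 CPM. High and low libraries thus occurred in both diets. The named Rpl30 pseudogenes summed to 3.43 to 8.46 CPM over the 20 libraries.

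Rpl17 ran from 115 to 502 CPM over the 20 libraries. Its named pseudogene Rpl17-ps10 ran from 114 to 512 CPM, and libraries low in one tended to be high in the other. The sum of both varied less than either: its coefficient of variation was 12.9%, against 42.9% for Rpl17 and 48.0% for Rpl17-ps10. The sum was 514 ± 82.4 CPM in gluten-free and 514 ± 39.7 CPM in control plain-ID libraries. Rpl17 was looked at after its values were seen.

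Other genes of the pathway were also lower in the gluten-free plain-ID libraries under TMM, and fewer of them with library totals. Of 20 further genes whose mRNAs carry or are thought to carry the pyrimidine tract, 14 fell and 1 (Vim) rose under TMM, with a median of -0.32, while with library totals 6 fell, 2 rose and the median was -0.04. Over all tested genes 22.1% were lower and 17.5% higher under TMM, and 11.1% lower and 35.5% higher with library totals. Eef1d, a subunit of the exchange factor for elongation factor 1, had 183 CPM in gluten-free and 334 CPM in control libraries (log2 fold change -0.86, SE 0.13). Hnrnpa1, an RNA-binding protein, had -0.55 (SE 0.09). Both were also called lower with library totals, Eef1d at -0.58 and Hnrnpa1 at -0.27. Rack1, a small-subunit scaffold protein, fell by 0.32 (SE 0.09, adjusted p = 0.0082) under TMM and was not called with library totals (-0.04, adjusted p = 0.674). Fau, the precursor of the ribosomal protein eS30, had -0.26 (SE 0.11, adjusted p = 0.0727), and Eef1a1, the main elongation factor, -0.24 (SE 0.10, adjusted p = 0.0538).

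Of 36 genes for ribosome assembly, 20 fell and none rose under TMM, with a median of -0.29, and 10 fell and none rose with library totals, with a median of -0.02, beside the same 22.1% and 11.1% of all genes lower. The smallest p-values were those of Polr1c, a subunit of RNA polymerases I and III (-0.75, SE 0.10), nucleolin, Ncl (-0.63, SE 0.09), and Nop56, a core protein of the box C/D small nucleolar particles (-0.55, SE 0.09). Of 14 genes for growth signalling, 5 fell and none rose under TMM, while 1 fell and 2 rose with library totals; 1 of 14 lower is near the share over all genes. Eif4ebp1, a repressor of cap-dependent translation, fell by 0.65 (SE 0.13, adjusted p = 0.0012), Larp1, which binds pyrimidine tracts, by 0.36 (SE 0.09, adjusted p = 0.0036) and Mlst8, a subunit of the mTOR complexes, by 0.49 (SE 0.13, adjusted p = 0.0072). With library totals Eif4ebp1 kept its call (-0.36, adjusted p = 0.0172), while Larp1 (-0.08, adjusted p = 0.381) and Mlst8 (-0.22, adjusted p = 0.218) did not. Myc, a transcription factor that drives ribosome genes, had 0.05 (SE 0.09, adjusted p = 0.709) under TMM and was higher with library totals (0.32, adjusted p = 0.026). None of the genes in these 3 lists was called in the S-ID libraries.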

How the data were processed

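Whole-spleen RNA was sequenced on an Illumina NovaSeq, per the labels' protocols. Per the submitters' processing notes, CASAVA, HISAT2 2.0.5, featureCounts 1.5.0 and GRCm38 (mm10) were used. The authors deposited raw counts per gene with no normalization; the strand setting and the handling of multi-mapping reads are not given in the sources used here. Libraries were grouped by diet and ID form from their titles. Counts were fitted with edgeR 4.0.16 in R 4.3.3 (quasi-likelihood test, two-sided, TMM, default expression filter over the 4 groups), with Benjamini-Hochberg adjustment over 18362 genes. The error of a log2 fold change is its size over the square root of F. TPM used the file's gene lengths. Chi-square per degree of freedom between libraries of 1 group was 6.01 to 100.2 over 47 pairs, so no such pair was 1 library sequenced again. Libraries of different groups were not compared, and separate libraries of the same mouse are not excluded. The fits were tested on simulated data. DESeq2 1.42.0 and limma 3.58.1 (voom) were alternatives. Windows and coding sequences came from GENCODE M21, start sites from RefSeq (GRCm38.p6). Members and gene lists were chosen with earlier results of these data known. Named members follow rules: the 8 highest and 8 lowest changes among called members in the plain IDs (none was higher), the 3 smallest p-values in the other diet fits, the 5 highest and 5 lowest by TPM, and listed paralogues, stalk, 5S-binding, anaemia and 14 further genes. The results of some genes are not reported here.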

Additional observations from a re-analysis of the deposited data

Results flagged for a closer look

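In groups of 4 to 10 libraries, single values far from the rest of their group were looked for in 141 combinations of group and measure, of which chance flags about 1 in 20, and 6 were found. The ratio of large to small subunit counts was 1.13 in control 5, against 1.20 to 1.25 in the other 7 plain-ID controls. In gluten-free plain-ID libraries, Rpl21 had 7.01 CPM in gluten-free 7, against 4.29 to 4.72 CPM in the others. Rpl22 had 381 CPM in gluten-free 10, against 331 to 337 CPM. Rpl30 had 118 CPM in gluten-free 9, against 14.3 to 18.3 CPM. Rps2 had 506 CPM in gluten-free 10, against 456 to 463 CPM. Among plain-ID controls, Rpl22l1 had 56.8 CPM in control 8, against 68.7 to 78.3 CPM.

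The diet difference in S IDs minus that in plain IDs, on the log2 scale under TMM, passed the test for 22 of the named members, all with a positive value, and is given for 21 of them. It was 1.17 for Rpl21, 1.08 for Rpl7a, 0.98 for Rps27l, 0.93 for both Rps18 and Rpl34, 0.89 for Rps2, 0.84 for Rpl35a and 0.81 for Rps12. It was 0.73 for Rpl41, 0.70 for Rplp0, Rplp1 and Rps19bp1, 0.59 for Rps19, 0.56 for Rpl3 and Rpl13a and 0.54 for Rps26. It was 0.53 for Rpsa, 0.51 for Rpl22, 0.50 for Rpl11 and Rpl7l1 and 0.49 for Rps3. The erythroid sums had medians of 166208 CPM in gluten-free and 213578 CPM in control S-ID libraries, and of 90098 CPM in gluten-free and 180739 CPM in control plain-ID libraries.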

How the results depend on the processing

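The plain-ID count of 58 members was 33 with upper quartile scaling, 8 with library totals, 8 when scaled to the members' sum, 35 with no low count filter and 2 with the erythroid mean as covariate. The count of 46 for the difference between ID forms was 23 with upper quartile scaling, 8 with library totals, 2 scaled to the members and 2 with the erythroid covariate. For S against plain IDs in gluten-free libraries, 37 became 15 with library totals, 16 scaled to the members and 0 with the erythroid covariate. In controls, 5 became 2 scaled to the members, 14 with DESeq2, 2 with limma-voom, 14 with the erythroid covariate and 9 without control 5 and gluten-free S1. The summed level in plain IDs, gluten-free minus control, was -1.32 percentage points of the TMM-scaled library and -0.19 points of the library total. Under library totals 4 named calls turned their sign: Rpl26 to 0.018, Rpl39 to 0.031, Rpl5 to 0.069 and Rps4x to 0.037. Leaving out 1 library gave 38 to 71 members in plain IDs, 0 to 0 in S IDs, 0 to 3 with both forms, 29 to 56 for the difference between forms, 22 to 56 among gluten-free and 0 to 11 among control libraries; 17 of 29 named members called in plain IDs kept their call in each such fit. Counts with reads of same-name pseudogenes added, an alternative chosen after seeing the data, called 55 members in plain IDs. Where no share over all tested genes is given above for a fit, its count shows only how the number of called members moved. The IDs 7, 8, S1 and S6 occur in both diets. Same-numbered libraries were compared by the deviation of each tested gene from its group mean in log2 CPM. These deviations, not the levels, correlated at -0.17, -0.20, 0.09 and 0.38. Values of single pairs cannot decide whether the numbers pair the libraries. With the replicate block, on those libraries alone, 0 members were called in plain IDs and 1 in S IDs. The block fit called 0 with both forms and 0 for the difference between forms. That fit rests on few libraries and cannot decide the pairing either. Few libraries per group and a scaling that cannot be checked against an external standard limit these values.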
